A study of Sus scrofa with 18 samples.

Results

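The genes described here are 38 cell cycle and DNA replication genes, chosen by gene symbol from a list and not by their values, out of 30686 rows of a deposited table of raw counts per gene. All 38 symbols were found. By role, 10 act in DNA replication, 16 in mitosis, 6 are cyclins or a kinase of the step from G1 to S phase, 3 are E2F transcription factors and 3 are inhibitors of cyclin-dependent kinases (CDKs). A filter on low counts kept 37 of them for testing, and the exception was E2F8.

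The samples were alveolar macrophages, the phagocytes that live in the airspaces of the lung, of healthy Danish Landrace-Yorkshire pigs, treated ex vivo for 24 hours. The control group had no addition, and another received poly I:C, a synthetic double-stranded RNA that stands in for viral RNA. Further groups received Bacillus subtilis or Enterococcus faecium, both gram-positive bacteria used as probiotics. The remaining groups received poly I:C together with B. subtilis or with E. faecium. Each of the 6 groups had 3 libraries, labelled pig 1 to pig 3. Age, dose and strain, and whether the bacteria lived, are not stated in the labels. The cells are a primary culture, in which other cell types can be present, and the 3 animals limit the precision.

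Before a cell copies its DNA, the MCM2 to MCM7 proteins form a ring-shaped helicase that is loaded at replication origins in G1, and PCNA later forms the sliding clamp that holds the DNA polymerases on the template. Ribonucleotide reductase and thymidylate synthase supply the nucleotides. The E2F factors switch many of these genes on once cyclin D and cyclin E kinases have inactivated the retinoblastoma protein, and the CDK inhibitors p21, p27 and p18 hold those kinases back. Genes of mitosis are transcribed later, in G2 and M phase. Alveolar macrophages are long-lived cells of which few divide at any time, and p21 is also known to be made in macrophages that have stopped dividing.

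The libraries held 16346750 to 27274279 counts. Levels below are CPM, counts per 1000000 of a library total scaled by TMM, and since they are not divided by gene length they are compared between libraries of 1 gene and not between genes. Values in a group are given in the order pig 1, pig 2, pig 3. In 13555 genes outside the list, deviations from the treatment means sorted the libraries into 3 sets, A, B and C, each with 1 library of every treatment. The sorting required 1 library of every treatment in each set and took the arrangement with the highest summed correlation within sets. The correlation of these deviations was 0.414 to 0.797 between libraries of the same set and -0.612 to -0.0391 between sets. Both ranges are partly fixed by that choice, and deviations from the mean of 3 libraries also lower the correlation between sets. The sets went against the pig numbers: 10 of 18 libraries lay in the set of their own number, and number and set matched throughout in 3 of 6 treatments. The sets were lettered by the numbers of the control libraries, so the controls are among these matches by definition. Tests therefore carried no block for the animal. Each call of a comparison or interaction that changes with a block for the set is given with its blocked value. For the test over all 6 treatments only the number of calls is given. All 14 markers of alveolar macrophages were detected, among them CD163 at 80.4 to 395 CPM and MRC1 at 202 to 656 CPM, while FABP4 was at 0.827 to 5.86 CPM.

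Against untreated control, poly I:C alone lowered a group of replication genes and E2F1 and raised PCNA and CDKN1A, while no mitosis gene passed the test. With poly I:C alone 7 of 37 members were called against control, 2 higher and 5 lower, at an adjusted p of 0.05 (edgeR quasi-likelihood test, Benjamini-Hochberg over all 13592 genes tested). This is 18.9% of the members, beside 22.5% of all genes called in that comparison, so the share of changed members was close to that of all genes (12.9% of all genes higher and 9.55% lower). Of the 10 replication genes, MCM2, MCM4, MCM6 and TYMS fell and PCNA rose, and the other 2 were E2F1, which fell, and CDKN1A, which rose. The set block gave 10 calls, adding MCM3, MCM5 and CCNA2, beside 41.7% of all genes. Leaving out control 1, control 3, poly I:C 2 or poly I:C 3 left 4 calls. In bulk RNA, fewer cells of a type and less RNA per cell cannot be told apart.

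MCM6, a subunit of the replicative helicase (gene ID 110257107, Sscrofa11.1, chromosome 15:15923638-15978587), was the helicase gene with the clearest separation. Its level was 31.1, 38.4 and 28.6 CPM in control, 9.87, 18.5 and 10 CPM with poly I:C, 25.3, 22.2 and 24.6 CPM with B. subtilis, 23.1, 36.9 and 26.4 CPM with E. faecium, 6.91, 20.5 and 9.59 CPM with B. subtilis plus poly I:C and 16.8, 10 and 12.3 CPM with E. faecium plus poly I:C. All 9 libraries with poly I:C, at 6.91 to 20.5 CPM, lay below all 9 without it, at 22.2 to 38.4 CPM. The log2 fold change against control was -1.35 (SE 0.36, adjusted p = 0.0128) with poly I:C, -1.40 (SE 0.36, adjusted p = 0.007) with B. subtilis plus poly I:C and -1.33 (SE 0.36, adjusted p = 0.0134) with E. faecium plus poly I:C. The highest poly I:C values were those of set B, 18.5, 20.5 and 16.8 CPM, and set B also held the highest MCM6 value of each treatment without poly I:C. Without poly I:C 1 or poly I:C 3 the change with poly I:C alone was -1.2 with an adjusted p of 0.0559 or 0.0603, and without E. faecium plus poly I:C 2 or 3 the adjusted p of that treatment was 0.0651 or 0.0514.

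MCM4, another helicase subunit (gene ID 100156398, chromosome 4:79674737-79686964), fell in the same 3 comparisons. It was measured at 8.32, 6.49 and 9.07 CPM in control, 4.7, 4.05 and 3.67 CPM with poly I:C, 4.49, 5.44 and 5.92 CPM with B. subtilis, 4.47, 8.13 and 8.83 CPM with E. faecium, 5.71, 3.79 and 3.5 CPM with B. subtilis plus poly I:C and 3.28, 3.21 and 5.64 CPM with E. faecium plus poly I:C. The poly I:C libraries lay below the controls in each case, and over all libraries the ranges of 3.21 to 5.71 CPM with poly I:C and 4.47 to 9.07 CPM without it overlapped. On the log2 scale MCM4 changed by -0.94 (SE 0.31, adjusted p = 0.0377) with poly I:C, -0.88 (SE 0.31, adjusted p = 0.0363) with B. subtilis added and -0.98 (SE 0.31, adjusted p = 0.031) with E. faecium added. These calls were close to the threshold: the adjusted p reached 0.124 with poly I:C without control 3, 0.133 with B. subtilis plus poly I:C without its library 3, and 0.125 with E. faecium plus poly I:C without its library 2.

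MCM2 and MCM3, also of the helicase, were lower with poly I:C and sat near the threshold. MCM2 was at 2.87, 4.25 and 2.78 CPM in control, 1.61, 1.4 and 1.57 CPM with poly I:C, 2.88, 1.95 and 1.9 CPM with B. subtilis, 1.77, 3.44 and 1.58 CPM with E. faecium, 1.01, 2.38 and 2.66 CPM with B. subtilis plus poly I:C and 2, 1.89 and 1.72 CPM with E. faecium plus poly I:C. Its 3 poly I:C libraries, at 1.40 to 1.61 CPM, lay below the 3 controls, with a log2 fold change of -1.11 (SE 0.38, adjusted p = 0.0496). This call was lost without any 1 of the 6 libraries compared, with adjusted p between 0.0727 and 0.167. MCM3 ranged from 1.38 to 3.78 CPM with poly I:C and from 1.86 to 7.49 CPM without it. Its change of -0.99 (SE 0.46, adjusted p = 0.135) passed with the set block (adjusted p = 0.00663). It also passed with library totals as the only scaling (-1.53, adjusted p = 0.0334). With both combined treatments MCM2 gave -0.69 and -0.81 and MCM3 -1.07 and -0.76, none of them called in the main fit without a block. With the set block MCM3 passed with both combined treatments (adjusted p of 0.00291 with B. subtilis and 0.0297 with E. faecium) and MCM2 with E. faecium plus poly I:C (adjusted p = 0.0351). With library totals alone MCM2 passed with both (adjusted p of 0.0122 with B. subtilis and 0.0263 with E. faecium). On that scaling MCM3 passed with B. subtilis plus poly I:C (adjusted p = 0.00968), as it did without library 2 of that group (adjusted p = 0.0381).

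MCM5, also of the helicase, moved the other way from MCM4 and MCM6. Its level was 6.23, 4.98 and 8.95 CPM in control, 10.2, 10.9 and 13.5 CPM with poly I:C, 4.25, 6.93 and 4.3 CPM with B. subtilis, 7.77, 5.37 and 7.25 CPM with E. faecium, 12.5, 8.22 and 17.1 CPM with B. subtilis plus poly I:C and 7.97, 14.9 and 8.44 CPM with E. faecium plus poly I:C. It was higher with poly I:C in every set, and the ranges of 7.97 to 17.1 CPM with and 4.25 to 8.95 CPM without poly I:C overlapped only at their ends. The log2 fold change against control was 0.78 (SE 0.33, adjusted p = 0.108) with poly I:C, 0.91 (SE 0.33, adjusted p = 0.0438) with B. subtilis plus poly I:C and 0.63 (SE 0.33, adjusted p = 0.191) with E. faecium plus poly I:C, so that 1 of the 3 passed. With the set block all 3 passed, with adjusted p of 0.00164, 0.000587 and 0.00943. MCM5 lies on an unplaced scaffold of Sscrofa11.1. With library totals as the only scaling the change with B. subtilis plus poly I:C was 0.08 (adjusted p = 0.851). The call was also lost without control 1 or 2 or B. subtilis plus poly I:C 1 or 3, with adjusted p of 0.0766 to 0.205.

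MCM7, a helicase subunit whose gene overlaps AP4M1 in the annotation, passed no test of treatment in the fit without a block and differed between the sets. Set A held 31.0 to 42.6 CPM, set C 23.8 to 32.7 CPM and set B 18.6 to 23.1 CPM. The set took 86.8% of its sum of squares on the log scale and treatment 5.77%. The log2 fold change with poly I:C was -0.03, with a 95% interval of -0.78 to 0.72. With library totals as the only scaling, the poly I:C change averaged over backgrounds was -0.50 (adjusted p = 0.0225).

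PCNA, the sliding clamp, which also serves DNA repair (gene ID 692192, chromosome 17:14137746-14142584), rose in every comparison of poly I:C with its background. It was measured at 39.4, 46.3 and 38.3 CPM in control, 114, 69.6 and 110 CPM with poly I:C, 38.2, 56.1 and 43.1 CPM with B. subtilis, 58.9, 43.9 and 44 CPM with E. faecium, 104, 64.6 and 117 CPM with B. subtilis plus poly I:C and 64.1, 117 and 134 CPM with E. faecium plus poly I:C. The 9 libraries with poly I:C held 64.1 to 134 CPM and the 9 without it 38.2 to 58.9 CPM, with no overlap. Against control PCNA changed by 1.24 (SE 0.29, adjusted p = 0.00603), 1.2 (SE 0.29, adjusted p = 0.00488) and 1.35 (SE 0.29, adjusted p = 0.00348) on the log2 scale for poly I:C alone, with B. subtilis and with E. faecium. Set B held the lowest poly I:C value of each treatment, at 69.6, 64.6 and 64.1 CPM. With library totals as the only scaling, the change with B. subtilis plus poly I:C was 0.37 (adjusted p = 0.241) and its call was lost.

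TYMS, thymidylate synthase, which makes the thymidine nucleotide, was at 5.59, 5.41 and 6.3 CPM in control, 2.15, 2.81 and 1.57 CPM with poly I:C, 4, 3.67 and 3.29 CPM with B. subtilis, 3.59, 4.85 and 3.54 CPM with E. faecium, 3.32, 2.34 and 1.75 CPM with B. subtilis plus poly I:C and 2.41, 3.5 and 2.11 CPM with E. faecium plus poly I:C. Every poly I:C library lay below every control, and the ranges with poly I:C (1.57 to 3.50 CPM) and without it (3.29 to 6.30 CPM) overlapped at their ends. TYMS had a log2 fold change of -1.41 (SE 0.30, adjusted p = 0.0036) with poly I:C, -1.23 (SE 0.30, adjusted p = 0.00574) with B. subtilis plus poly I:C and -1.11 (SE 0.30, adjusted p = 0.0141) with E. faecium plus poly I:C. The last call was lost without control 3 or E. faecium plus poly I:C 1 or 3 (adjusted p of 0.0501 to 0.0684). RRM1 and RRM2, the subunits of ribonucleotide reductase, did not pass in any comparison in the fit without a block. RRM1 ranged from 16.8 to 29.3 CPM over all libraries and RRM2 from 0.276 to 2.53 CPM, and for RRM2 the set took 62.0% of the sum of squares. RRM1 had a log2 fold change of -0.53 (SE 0.16, adjusted p = 0.0825) with B. subtilis alone, which passed with the set block (adjusted p = 0.0113).

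**Figure D1:**
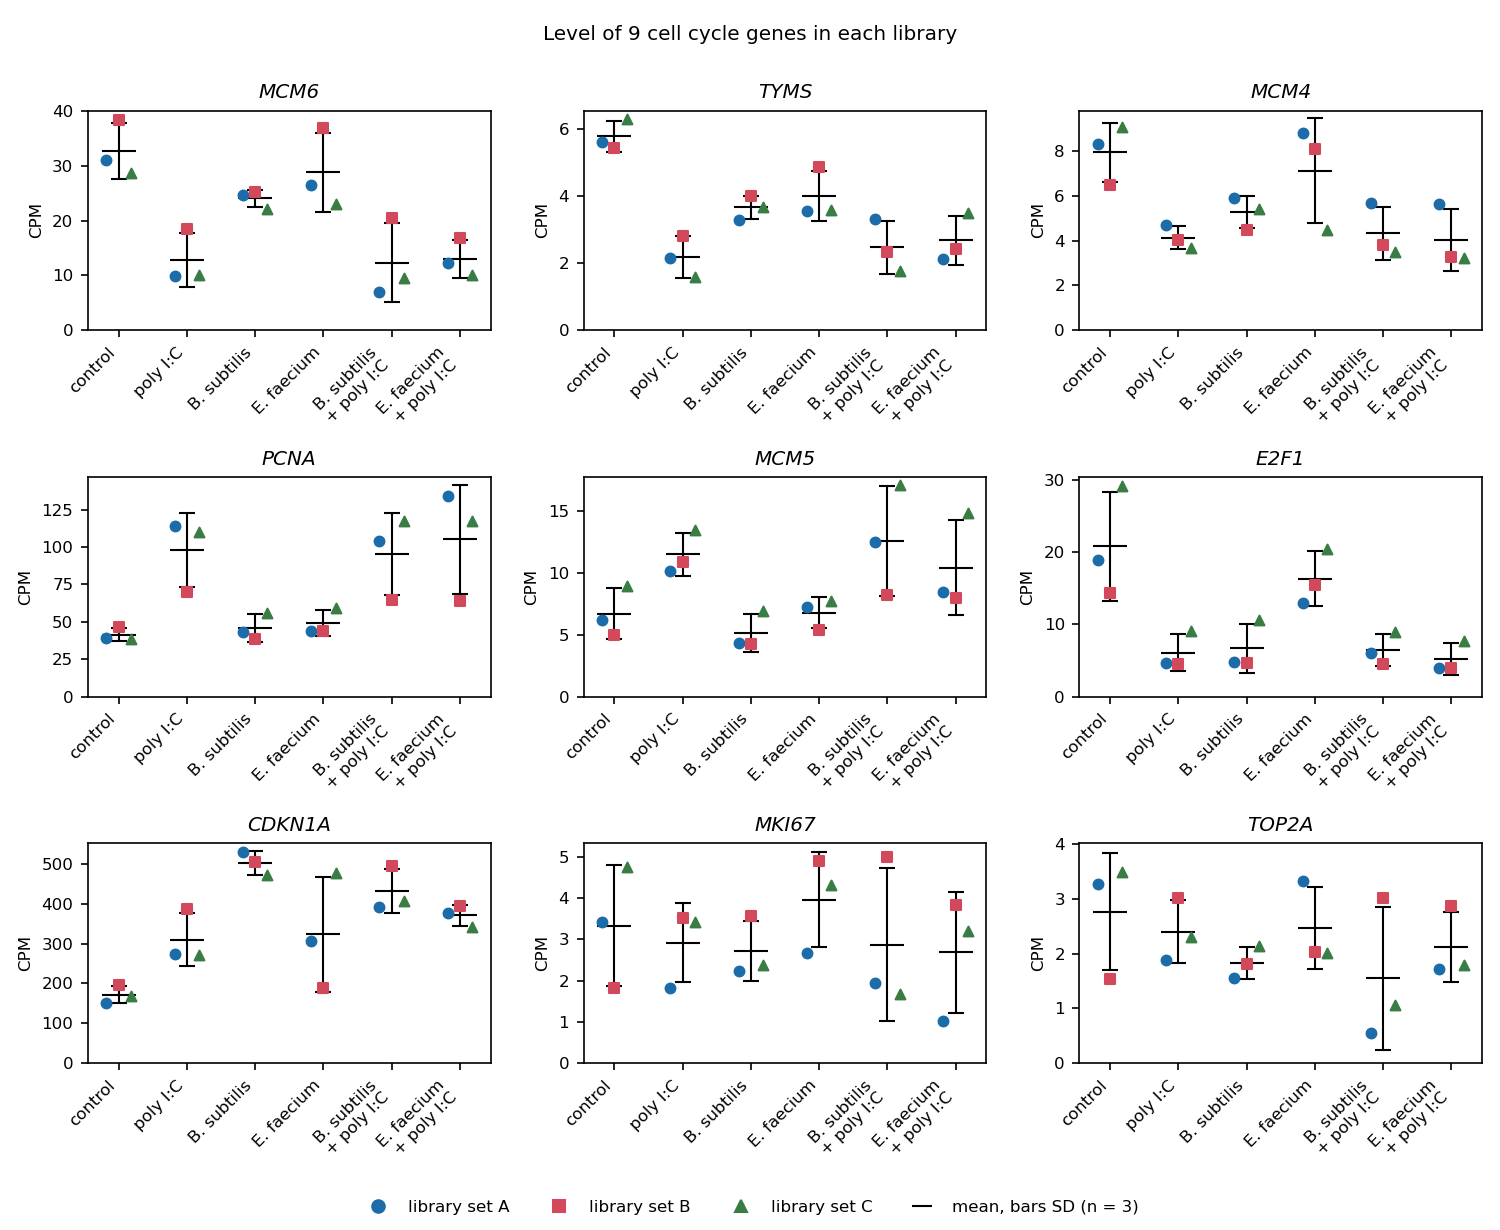
Levels of 9 member genes in each of the 18 libraries, in CPM on the vertical axis, by treatment on the horizontal axis. Points are libraries with a marker for library set A, B or C, and bars give the mean and SD of 3 libraries. MCM6 is lower and PCNA higher in all 9 libraries with poly I:C than in all 9 without it.

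E2F1, the factor that switches on replication genes (gene ID 100153846, chromosome 17:37178587-37190118), had the largest fall of the 37 tested members with poly I:C alone. Its level was 18.9, 14.4 and 29.1 CPM in control, 4.7, 4.54 and 9.06 CPM with poly I:C, 4.69, 10.6 and 4.8 CPM with B. subtilis, 20.5, 15.5 and 13 CPM with E. faecium, 6.08, 4.48 and 8.91 CPM with B. subtilis plus poly I:C and 4.01, 7.72 and 3.93 CPM with E. faecium plus poly I:C. Controls and E. faecium libraries held 13 to 29.1 CPM, and all other libraries 3.93 to 10.6 CPM, so that the B. subtilis libraries lay with those that received poly I:C. The log2 fold change against control was -1.77 (SE 0.42, adjusted p = 0.00715) with poly I:C, -1.63 (SE 0.42, adjusted p = 0.0379) with B. subtilis, -1.68 (SE 0.42, adjusted p = 0.00646) with both and -1.99 (SE 0.43, adjusted p = 0.00334) with E. faecium plus poly I:C. With E. faecium alone it was -0.35 (SE 0.41, adjusted p = 1). The B. subtilis call was lost without control 1, control 3, B. subtilis 1 or B. subtilis 3, with adjusted p of 0.0903 to 0.191.

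Adding poly I:C to B. subtilis left E2F1 at a log2 difference of -0.05 (SE 0.42, adjusted p = 0.951), whereas adding it to E. faecium gave -1.64 (SE 0.42, adjusted p = 0.0156). The latter was lost without E. faecium plus poly I:C 1 or 3 (adjusted p of 0.0593 and 0.0735). The interaction of B. subtilis and poly I:C, the change by both minus the sum of the changes by each, was 1.72 (SE 0.59, adjusted p = 0.409) and did not pass. Blocked by set it was 1.78 (adjusted p = 0.00323), 1 of 521 genes, 3.83% of those tested. The bacteria alone differed by -1.28 (SE 0.42, adjusted p = 0.273), B. subtilis lower, and with the set block by -1.37 (adjusted p = 0.000665), where 6.82% of all genes were called. E2F2, a relative of E2F1 with the same binding site, was at 5.74, 7.76 and 7.28 CPM in control and at 4.73, 2.60 and 1.34 CPM with B. subtilis. Its change of -1.26 (SE 0.48, adjusted p = 0.171) passed only with the set block (adjusted p = 0.000726). The same held for its change with E. faecium plus poly I:C (-0.66, adjusted p = 0.0258). With B. subtilis plus poly I:C, E2F2 passed with the set block (-1.13, adjusted p = 0.000865). It also passed there with library totals as the only scaling (-1.77, adjusted p = 0.0139) and without B. subtilis plus poly I:C 2 (-1.41, adjusted p = 0.0459). E2F8, a repressor of the family, had 0 to 16 counts in a library and was not tested.

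CDKN1A, which codes for p21, a CDK inhibitor and target of p53 (gene ID 100152215, chromosome 7:32354776-32363771), was higher with B. subtilis and with every treatment that held poly I:C. It was measured at 151, 195 and 169 CPM in control, 273, 386 and 271 CPM with poly I:C, 505, 471 and 531 CPM with B. subtilis, 476, 188 and 306 CPM with E. faecium, 393, 496 and 408 CPM with B. subtilis plus poly I:C and 394, 342 and 378 CPM with E. faecium plus poly I:C. All 12 libraries of these 4 treatments, at 271 CPM or more, lay above the controls, and the E. faecium group spread from 188 to 476 CPM across them. On the log2 scale CDKN1A changed by 1.55 (SE 0.27, adjusted p = 0.00446) with B. subtilis, 0.85 (SE 0.27, adjusted p = 0.0303) with poly I:C, 1.33 (SE 0.27, adjusted p = 0.00146) with both and 1.11 (SE 0.27, adjusted p = 0.00696) with E. faecium plus poly I:C. The poly I:C call was lost without control 1, control 3 or poly I:C 2 (adjusted p of 0.0898 to 0.127), and with library totals alone it was 0.33 (adjusted p = 0.344). On that scaling the calls of the combined treatments were lost too, at 0.54 (adjusted p = 0.0907) with B. subtilis and 0.58 (adjusted p = 0.0898) with E. faecium. Poly I:C added to B. subtilis gave -0.22 (SE 0.26, adjusted p = 0.602), and the interaction was -1.07 (SE 0.37, adjusted p = 0.425). With poly I:C added to E. faecium, none of the 3 CDK inhibitor genes was called, and their changes were -0.27 to 0.25. The rise of CDKN1A with poly I:C was thus called only against untreated control.

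CDKN2C, which codes for p18, an inhibitor of the cyclin D kinases, moved opposite to CDKN1A with B. subtilis plus poly I:C. Its values were 3.51, 2.32 and 4.26 CPM in control, 3.09, 1.24 and 1.62 CPM with poly I:C, 1.27, 2.84 and 1.56 CPM with B. subtilis, 1.77, 1.85 and 2.4 CPM with E. faecium, 1.47, 1.17 and 1.29 CPM with B. subtilis plus poly I:C and 1.96, 1.46 and 1.57 CPM with E. faecium plus poly I:C. The 3 libraries with both agents, at 1.17 to 1.47 CPM, lay below the controls at 2.32 to 4.26 CPM, and the change was -1.36 (SE 0.40, adjusted p = 0.0149). Without control 3 it was -1.16 (adjusted p = 0.0646). With E. faecium plus poly I:C it passed with the set block (-0.96, adjusted p = 0.0274). CDKN1B, which codes for p27, lay between 33.7 and 50.3 CPM in all libraries and was not called in the fit without a block, with a change of 0.23 with poly I:C and a 95% interval of -0.15 to 0.61. With library totals alone it was -0.64 with B. subtilis plus poly I:C (adjusted p = 0.0155), where the median of all genes was -0.82.

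Of the 16 mitosis genes, 2 passed with B. subtilis plus poly I:C, beside 35.6% of all genes, and none in the other 4 treatments against control, beside 22.5% of all genes with poly I:C. These genes were thinly counted. Their counts in a library had a median of 24 and a maximum of 178, against a median of 155 for the replication genes, and the median SE of a log2 fold change was 0.50 against 0.34. How far this bears on the number of calls was not tested.

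CCNA2, cyclin A, which acts in S phase and at entry to mitosis, was at 1.62, 0.927 and 1.02 CPM in control, 0.47, 0.432 and 0.636 CPM with poly I:C, 0.39, 0.976 and 0.893 CPM with B. subtilis, 1.13, 0.771 and 1.47 CPM with E. faecium, 0.276, 0.389 and 0.609 CPM with B. subtilis plus poly I:C and 0.774, 1.55 and 0.932 CPM with E. faecium plus poly I:C. Libraries with poly I:C or with both poly I:C and B. subtilis lay below the controls, and those with E. faecium plus poly I:C spread over the control range. CCNA2 had a log2 fold change of -1.2 (SE 0.47, adjusted p = 0.0792) with poly I:C, -1.47 (SE 0.48, adjusted p = 0.0271) with B. subtilis plus poly I:C and -0.13 (SE 0.45, adjusted p = 0.87) with E. faecium plus poly I:C. The first passed with the set block (adjusted p = 0.0172), and the second was lost without control 1 or B. subtilis plus poly I:C 1 or 2 (adjusted p of 0.0599 to 0.111). CCNA2 overlaps EXOSC9 in the annotation.

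KIF11, the motor that separates the spindle poles, was at 2.38, 1.51 and 1.57 CPM in control, 0.94, 1.3 and 0.979 CPM with poly I:C, 1.56, 0.79 and 0.726 CPM with B. subtilis, 1.87, 1.05 and 1.69 CPM with E. faecium, 0.276, 1.12 and 0.533 CPM with B. subtilis plus poly I:C and 0.956, 1.02 and 1.57 CPM with E. faecium plus poly I:C. With B. subtilis plus poly I:C its 3 values lay below the controls, and the lowest, 0.276 CPM, was 3 counts. The change was -1.44 (SE 0.48, adjusted p = 0.0281), and it was lost without control 1 or B. subtilis plus poly I:C 1 or 3 (adjusted p of 0.104 to 0.111).

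MKI67, the proliferation marker Ki-67, was at 3.42, 1.82 and 4.75 CPM in control, 1.81, 3.51 and 3.43 CPM with poly I:C, 3.56, 2.37 and 2.23 CPM with B. subtilis, 4.33, 4.9 and 2.67 CPM with E. faecium, 1.93, 5.01 and 1.68 CPM with B. subtilis plus poly I:C and 3.83, 3.21 and 1.03 CPM with E. faecium plus poly I:C. TOP2A, the topoisomerase that untangles chromosomes, was at 3.28, 1.54 and 3.49 CPM in control, 1.88, 3.02 and 2.3 CPM with poly I:C, 1.81, 2.14 and 1.56 CPM with B. subtilis, 2.02, 2.04 and 3.33 CPM with E. faecium, 0.553, 3.02 and 1.07 CPM with B. subtilis plus poly I:C and 2.87, 1.8 and 1.72 CPM with E. faecium plus poly I:C. In both genes every group overlapped the controls, and with B. subtilis plus poly I:C the pig 2 library, of set B, held the highest value of its group. The log2 fold change with poly I:C was -0.19 for MKI67, with a 95% interval of -1.29 to 0.91, and -0.21 for TOP2A, with one of -1.24 to 0.83. The pig 2 library of B. subtilis plus poly I:C decided several calls: without it, B. subtilis plus poly I:C lay below poly I:C alone in TOP2A (-1.55, adjusted p = 0.0404), in the kinetochore gene CENPF (-2.88, adjusted p = 0.00967) and in CCNE2, cyclin E2 (-3.39, adjusted p = 0.0406). Against control it lay lower in TOP2A (-1.76, adjusted p = 0.00796), CENPF (-3.07, adjusted p = 0.000853) and CCNE2 (-4.54, adjusted p = 0.0021) and higher in the kinase AURKA (0.85, adjusted p = 0.0355). With all libraries, TMM scaling and no block, edgeR called none of these 4 genes in either comparison. With library totals as the only scaling TOP2A, CENPF and CCNE2 passed as lower against control (adjusted p of 0.03, 0.0225 and 0.015). Without pig 2 the group held only the pig 1 and pig 3 libraries, with 1 and 3 counts of CENPF. Those of CCNE2 were 0 and 1, and the pig 2 library held 27 counts of CENPF and 13 of CCNE2. The fold changes of CENPF and CCNE2 without pig 2 thus rest on counts near 0. The pig 1 and pig 3 libraries held 6 and 14 counts of TOP2A and 68 and 66 of AURKA.

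The other 12 mitosis genes were CDK1 with its cyclins CCNB1 and CCNB2, the spindle checkpoint kinases BUB1 and BUB1B, the mitotic kinases AURKA, AURKB and PLK1, CDC20, which activates the anaphase-promoting complex, BIRC5 (survivin), CENPF and the spindle factor TPX2. With all libraries, TMM scaling and no block, none was called in any comparison. BIRC5 passed with the set block for B. subtilis plus poly I:C against B. subtilis (1.09, adjusted p = 0.0146). With library totals as the only scaling PLK1, CDC20, CENPF, BUB1B and AURKB passed as lower with B. subtilis plus poly I:C, with adjusted p of 0.0112 to 0.0358, and CDC20 and BUB1B with E. faecium plus poly I:C, with 0.0373 and 0.0424. Their log2 fold changes with poly I:C ran from -1.06 (BUB1, adjusted p = 0.346) to 0.37 (AURKA, adjusted p = 0.5). With B. subtilis they ran from -1.23 (BUB1B) to 0.31 (AURKA), and 14 of the 16 mitosis genes had a value below 0, beside 6997 of all 13592 genes. AURKA, at 2.19 to 6.26 CPM, and TPX2, at 1.62 to 5.15 CPM, had the highest counts of these, and CCNB2 held 0.273 to 1.61 CPM.

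None of the 6 genes of the G1 to S step was called in the fit without a block. CCND3, cyclin D3, held 15.8 to 61.9 CPM with 54.6% of its sum of squares between sets, since set B held 15.8 to 26.4 CPM and set A 29.0 to 61.9 CPM. CCND1, cyclin D1, was at 0 to 0.838 CPM and CCND2, cyclin D2, at 0.403 to 3.50 CPM. CCND2 was highest in B. subtilis plus poly I:C 3, at 3.50 CPM, and its change of 1.28 (SE 0.69, adjusted p = 0.161) with both agents passed with the set block (adjusted p = 0.0187). CCNE1, cyclin E1, held 0.670 to 3.90 CPM, and with the set block it passed for B. subtilis plus poly I:C against B. subtilis (1.05, adjusted p = 0.0289). CCNE2 was at 0, 0.632 and 0.0761 CPM with B. subtilis plus poly I:C and at 1.36, 0.811 and 1.08 CPM in control. Its change of -2 (SE 0.80, adjusted p = 0.063) passed with the set block (adjusted p = 0.0141). CDK2, the kinase bound by cyclin E, was at 3.16 to 5.59 CPM, and with library totals alone its change was -0.96 with B. subtilis plus poly I:C (adjusted p = 0.00574).

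**Figure D2:**
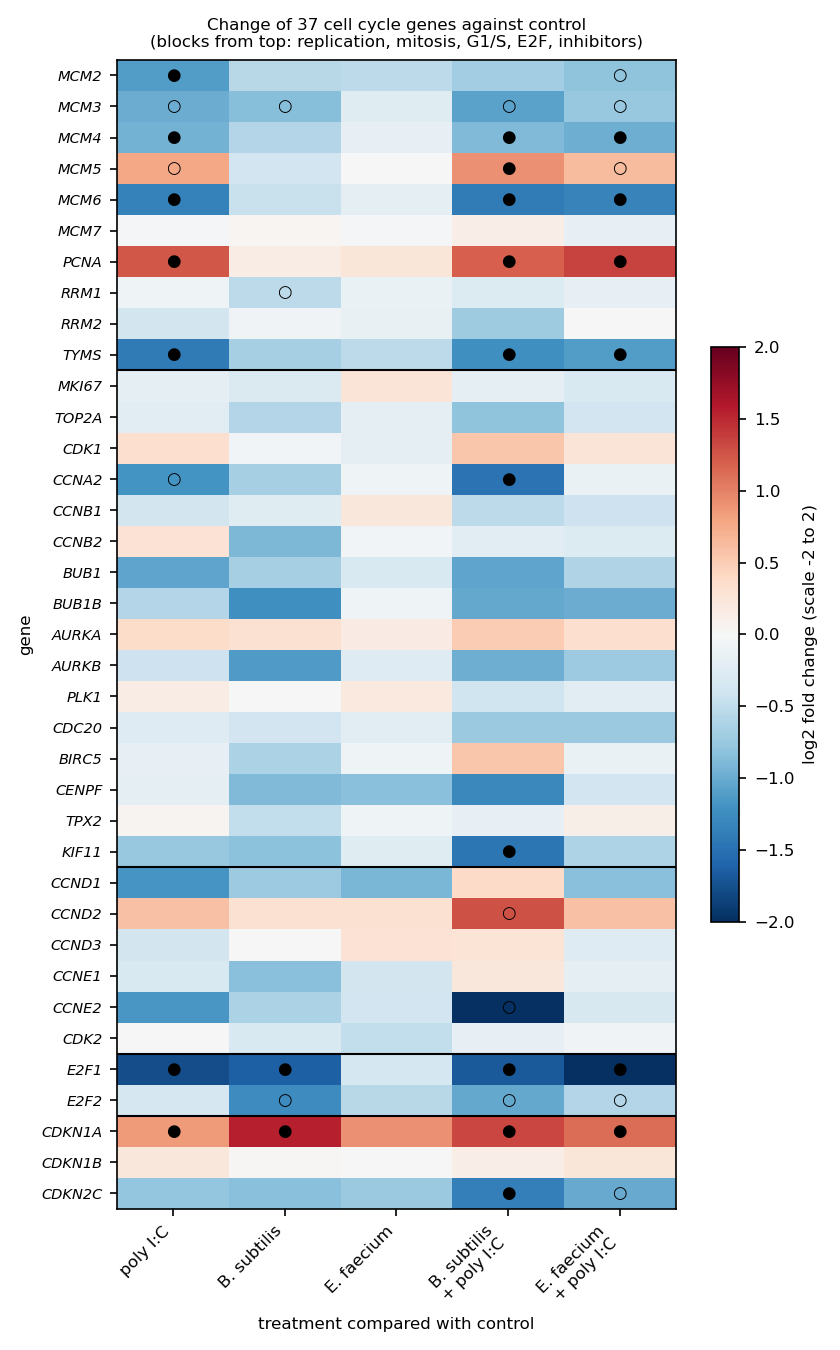
Log2 fold change against control (colour scale) of the 37 tested members (vertical axis, grouped by role) in the 5 treatments (horizontal axis). A filled dot marks a call in the fit without a block and an open dot a call made with the library set block and not in that fit. Filled dots lie among the replication genes and at E2F1, CDKN1A and CDKN2C, and the mitosis block holds 2 filled dots, both with B. subtilis plus poly I:C.

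B. subtilis alone changed few of these genes. CDKN1A rose and E2F1 fell, 2 of 37 members or 5.41%, beside 4.44% of all genes (2.75% higher and 1.69% lower). The set block gave 5, adding MCM3 (-0.85, adjusted p = 0.0261), RRM1 and E2F2, beside 18.4% of all genes. With E. faecium alone 0 of 37 members were called by edgeR, as were 0 of 13592 genes (0%), with 278 genes at an unadjusted p below 0.05 and 36 called by DESeq2. Among the members 1 had an unadjusted p below 0.05, and DESeq2 called 1, CDKN1A, with a log2 fold change of 0.92 (adjusted p = 0.0361). DESeq2 gave no adjusted p to any other tested member in this comparison, so it could call no other. Its calls here are therefore not over the same genes as those of edgeR. Without E. faecium 2, edgeR too called CDKN1A (1.19, adjusted p = 0.0471). The 11 monocyte and dendritic cell markers summed to 4210 to 5180 CPM with B. subtilis, 2820 to 5830 CPM with B. subtilis plus poly I:C and 1340 to 2210 CPM in control, with CLEC9A at 0 to 0.0492 CPM. Most of this sum came from CD14 (154 to 2140 CPM over all libraries), S100A12 (547 to 3270 CPM) and ITGAX (240 to 666 CPM). The 10 neutrophil and mast cell markers summed to 3230 to 4670 CPM with B. subtilis, 2080 to 5690 CPM with both agents and 732 to 2120 CPM in control, with MPO and CPA3 at 0 in all libraries. Most of that sum came from S100A8 (195 to 1800 CPM over all libraries) and S100A9 (384 to 3840 CPM), and CXCR2 was at 2.86 to 49.6 CPM. The part of these cell types in the B. subtilis results was not tested.

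B. subtilis plus poly I:C gave the most calls. Of 37 members 10 passed against control, 3 higher (MCM5, PCNA and CDKN1A) and 7 lower (MCM4, MCM6, TYMS, CCNA2, KIF11, E2F1 and CDKN2C), which is 27% of the members beside 35.6% of all genes (19% higher and 16.6% lower). Without control 1 there were 6 calls, and with the set block there were 14, beside 54.6% of all genes. E. faecium plus poly I:C changed 6 members against control, PCNA and CDKN1A upward and MCM4, MCM6, TYMS and E2F1 downward, beside 23.1% of all genes (13.3% higher and 9.9% lower). The set block gave 11, adding MCM2, MCM3, MCM5, E2F2 and CDKN2C, beside 42.8% of all genes. All of these comparisons use the same 3 control libraries.

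Against the bacterium alone, poly I:C raised MCM5 by 1.29 (SE 0.34, adjusted p = 0.0165) and PCNA by 1.05 (SE 0.29, adjusted p = 0.0203) on the log2 scale in the presence of B. subtilis, beside 18.9% of all genes called (11.1% higher and 7.8% lower). MCM6 there gave -0.95 (SE 0.35, adjusted p = 0.072) and passed with the set block (adjusted p = 0.00151), which gave 5 calls beside 41.4% of all genes, CCNE1 and BIRC5 among them. Both edgeR calls were lost without B. subtilis 1, B. subtilis 3 or B. subtilis plus poly I:C 3 (adjusted p of 0.0663 to 0.0978), and PCNA also without B. subtilis plus poly I:C 1 (adjusted p = 0.0667). In the presence of E. faecium, PCNA rose by 1.10 (SE 0.29, adjusted p = 0.017), MCM6 changed by -1.14 (SE 0.35, adjusted p = 0.0396) and E2F1 fell as given above, beside 15.8% of all genes (9.49% higher and 6.35% lower). The set block gave 5 calls there, beside 34.9% of all genes, adding MCM4 (-0.84, adjusted p = 0.0114) and MCM5 (0.58, adjusted p = 0.0184). Without E. faecium 2 or 3 or E. faecium plus poly I:C 2 or 3 there was 1, with adjusted p of up to 0.0856 for PCNA and 0.159 for MCM6. No member was called for a bacterium on top of poly I:C: 0 of 37 were called by edgeR or DESeq2 for B. subtilis or E. faecium plus poly I:C against poly I:C (0% of all genes by edgeR), and 0 and 1 had an unadjusted p below 0.05. Between the combined treatments edgeR called 0 members (0% of all genes), with 1 at an unadjusted p below 0.05 and 0 by DESeq2, and without B. subtilis plus poly I:C 2 it called TOP2A, KIF11, CENPF and CCNE2. Between the bacteria alone, and for the interaction of B. subtilis and poly I:C, edgeR and DESeq2 called 0 members, beside 0.177% and 0.0368% of all genes by edgeR, with 3 members at an unadjusted p below 0.05 in each. For the interaction of E. faecium and poly I:C 0 members had an unadjusted p below 0.05, and 0% of all genes were called. Over all 6 treatments, 6 members differed, beside 29.7% of all genes, and with the set block 12, beside 58.1% of all genes.

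A contrast added after the data had been seen averaged the change by poly I:C over the 3 backgrounds, 9 libraries against 9. It called 6 of 37 members, 16.2%, beside 43.4% of all genes (22.1% higher and 21.3% lower). MCM6 changed by -1.15 (SE 0.21, adjusted p = 0.00033), E2F1 by -1.15 (SE 0.24, adjusted p = 0.00124), TYMS by -0.85 (SE 0.17, adjusted p = 0.000992) and MCM4 by -0.68 (SE 0.18, adjusted p = 0.00574). The E2F1 average joins unlike backgrounds, with -1.77 on control, -1.64 on E. faecium and -0.05 on B. subtilis. MCM5 changed by 0.89 (SE 0.19, adjusted p = 0.00146) and PCNA by 1.13 (SE 0.17, adjusted p = 6e-05). All 6 had the same direction in 3 of 3 sets and kept their call without any 1 of the 18 libraries, and with library totals as the only scaling MCM5 lost its call (0.42, adjusted p = 0.0587). None of the 16 mitosis genes was called in the fit without a block, with CCNA2 nearest at -0.68 (SE 0.27, adjusted p = 0.0525). MKI67 gave -0.22, with a 95% interval of -0.86 to 0.42, and CDK1 0.46, with one of -0.19 to 1.11. None of the 3 CDK inhibitor genes, CDKN1A among them, was called in that fit, with changes of at most 0.28. CDKN1A passed without E. faecium 1 (0.41, adjusted p = 0.0203). The set block called 11 members beside 60.2% of all genes, adding CCNA2 (adjusted p = 0.0171), MCM3 (adjusted p = 0.00594), MCM2 (adjusted p = 0.0228), CDKN2C (adjusted p = 0.0349) and CCNE2 (adjusted p = 0.042), all lower. With library totals alone the mitosis genes PLK1, KIF11, CDC20, CCNB1, CCNA2 and BUB1B passed as lower, with adjusted p of 0.00205 to 0.0289, where the median of all genes was -0.49. MCM6 and PCNA were the 2 of 37 members whose libraries with and without poly I:C did not overlap, beside 11.1% of all genes.

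**Figure D3:**
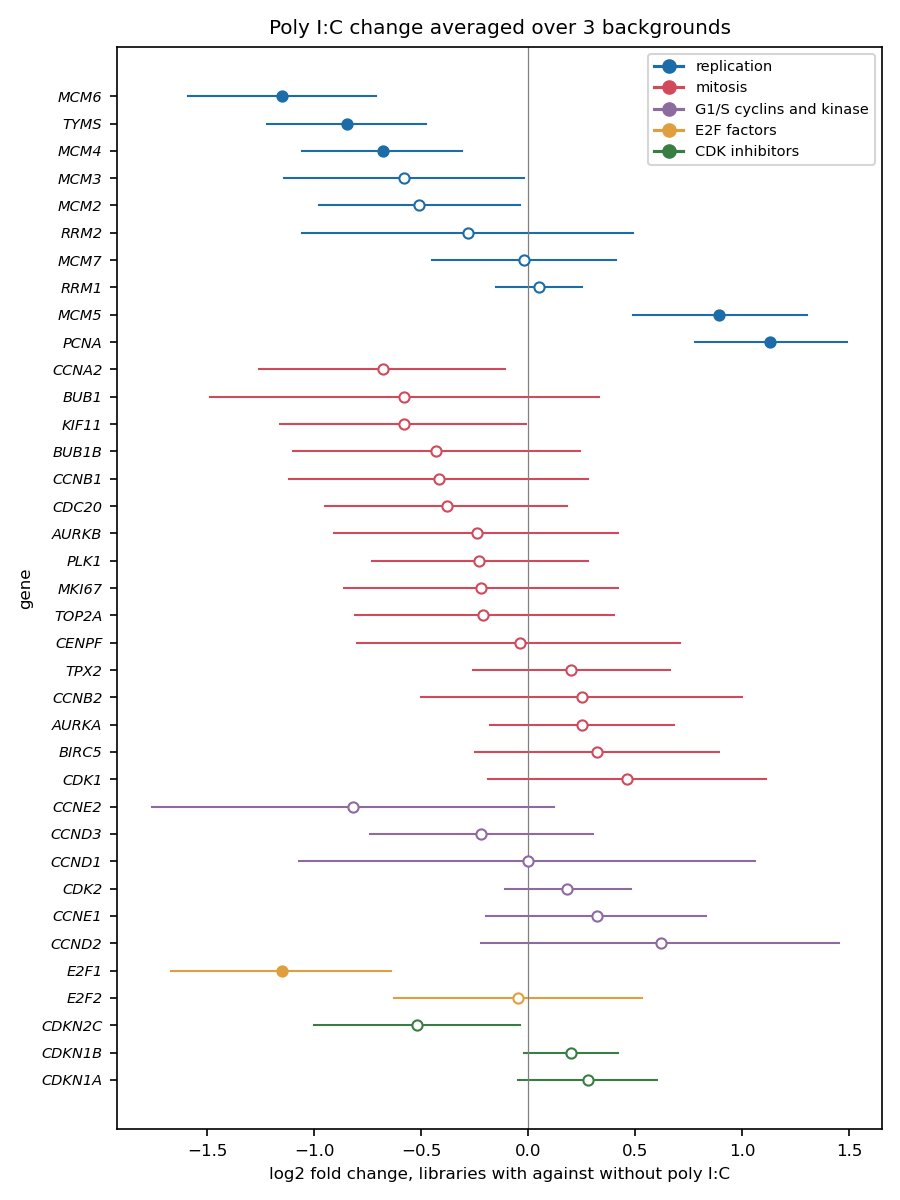
Log2 fold change of each tested member with against without poly I:C, averaged over the 3 backgrounds (horizontal axis), with 95% intervals. Genes are on the vertical axis, coloured by role, and filled points passed at an adjusted p of 0.05. MCM6, TYMS, MCM4 and E2F1 lie below 0 and MCM5 and PCNA above it, and all mitosis points are open.

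Within a library, the log2 ratio of a pair of helicase or clamp genes depends little on the scaling, which enters only through the prior count of 2. A shift of such a ratio cannot tell which gene of the pair moved, or in which direction. The log2 ratio of MCM5 to MCM6 ran from -1.31 to 0.85 with poly I:C (median 0.05, n = 9) and from -2.92 to -1.56 without it (median -2.30, n = 9). The log2 ratio of PCNA to MCM6 ran from 1.65 to 3.90 with poly I:C and from 0.25 to 1.35 without it. Neither pair of ranges overlapped. For PCNA and MCM6 this follows from the levels given above, since each gene separated the libraries, in opposite directions. The pairs were picked after the values were seen, so these ratios are a description, and since they are not per length only their shift between libraries can be read.

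Taken as lists, replication and mitosis genes both had medians below that of all genes and differed in how they varied. The median log2 fold change with poly I:C was -0.66 for the replication genes, -0.20 for the mitosis genes and -0.01 for all genes. With B. subtilis the medians were -0.49 and -0.61 against -0.02, and with E. faecium -0.15 and -0.09 against 0. With B. subtilis plus poly I:C they were -0.70 and -0.63, and with E. faecium plus poly I:C -0.46 and -0.34. The replication list held 8 values below 0 of 10 with poly I:C and the mitosis list 11 of 16. Of all genes tested 6901 of 13592 lay below 0. Of the other replication and the other mitosis genes described below, 20 of 49 and 32 of 51 did. Leaving TOP2A, CCNA2 and MKI67, which also act or are seen in S phase, out of the mitosis genes gave -0.19 with poly I:C. The difference between the lists was not tested.

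In single libraries, the median of the replication genes relative to the control mean lay at -0.06, 0.04 and -0.05 log2 in the controls. In the 9 libraries with poly I:C it lay at -0.76 to -0.36, which did not overlap the controls. With B. subtilis alone it was -0.34, -0.47 and -0.65, and with E. faecium alone -0.57, 0.08 and -0.28. Both of these groups reached into the poly I:C range. For the mitosis genes the controls themselves spread over 0.38, -0.58 and 0.13, and the poly I:C libraries, at -0.72 to -0.07, overlapped them. Treatment took a median of 63.9% of the sum of squares of a replication gene and 30.1% of that of a mitosis gene, against 48% over all genes. The set took 21.4% and 27.3%, and the pig number 8.31% and 10.3%. The replication genes had the higher counts, and how far that accounts for the difference was not tested.

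**Figure D4:**
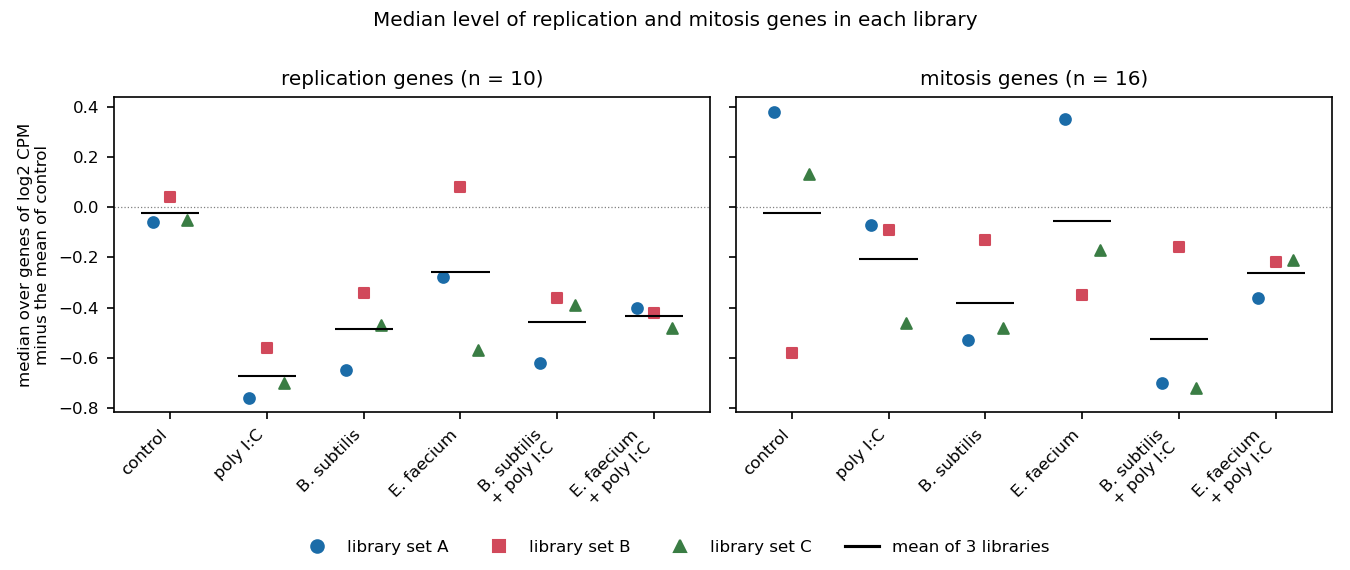
Median log2 level of the replication genes and of the mitosis genes in each library, relative to the mean of the controls (vertical axis), by treatment (horizontal axis), with a marker for library set. The controls lie between -0.06 and 0.04 for replication and spread from -0.58 to 0.38 for mitosis.

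How the counts are scaled moves all of these levels. With library totals and no TMM factor, the median log2 fold change of all genes was -0.54 for poly I:C, -0.33 for B. subtilis, -0.82 for both and -0.57 for E. faecium plus poly I:C. On that scale 1 member was called higher and 9 lower with poly I:C, where the main scaling gave 2 and 5. Of all genes tested, 952 were called higher and 3837 lower there. With B. subtilis plus poly I:C 0 members were called higher and 20 lower, where the main scaling gave 3 and 7. This was beside 957 of all genes higher and 6151 lower, so calls moved downward in all genes and not in the members alone. All called members kept their direction.

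Other genes of the same pathways, from lists chosen with earlier results known, were called in both directions with poly I:C, as were all genes, of which 12.9% were higher and 9.55% lower. Of 49 other replication genes 7 rose and 3 fell against control. Those that rose included DBF4, the activator of the kinase CDC7 (2.43, SE 0.21, adjusted p = 1.17e-05), CHAF1B of the chromatin assembly factor (2.12, SE 0.40, adjusted p = 0.00136) and ORC2 of the origin recognition complex (1.30, SE 0.19, adjusted p = 0.000211). DNMT1, the maintenance methyltransferase (-1.55, SE 0.52, adjusted p = 0.0429), RFC4 of the clamp loader (-0.75, SE 0.25, adjusted p = 0.0432) and RPA1, which coats single-stranded DNA (-0.61, SE 0.20, adjusted p = 0.0338), fell. The median of this list was 0.11, against -0.66 for the 10 replication members.

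Of 51 other mitosis genes 4 rose and 3 fell with poly I:C, and their median was -0.28, beside the same 12.9% and 9.55% of all genes. HMMR, a hyaluronan receptor that also binds the spindle, had the largest rise (3.15, SE 0.31, adjusted p = 1.79e-05), followed by ECT2 (1.81, SE 0.56, adjusted p = 0.0293) and RACGAP1 (1.2, SE 0.33, adjusted p = 0.0164), which act together in cytokinesis. CDC25B, the phosphatase that activates CDK1, fell (-1.51, SE 0.43, adjusted p = 0.0201), as did CDCA2 (-1.46, adjusted p = 0.0139) and CKS1B (-1.33, adjusted p = 0.0363).

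Among 23 partners and regulators of E2F, 5 rose and 4 fell with poly I:C, beside 12.9% and 9.55% of all genes. The E2F partners split: TFDP2 rose (2.19, SE 0.54, adjusted p = 0.0087) and TFDP1 fell (-1.18, SE 0.24, adjusted p = 0.00256). MAX, the partner of MYC (1.92, SE 0.20, adjusted p = 2.22e-05), and LIN52 of the DREAM complex (1.37, SE 0.22, adjusted p = 0.000452) rose, and RBL2, the pocket protein p130 (-1.09, SE 0.32, adjusted p = 0.0217), and CDK4, the cyclin D kinase (-0.73, SE 0.18, adjusted p = 0.00761), fell. Of 25 p53 targets and arrest genes 9 rose and 2 fell, beside the same shares of all genes. GADD45B, a stress gene of growth arrest (3.43, SE 0.69, adjusted p = 0.00226), TOB1 (2.08, SE 0.72, adjusted p = 0.0484) and CCNG2 (2.03, SE 0.53, adjusted p = 0.0128), both antiproliferative, rose, and PHLDA3 (-2.41, SE 0.40, adjusted p = 0.00058) and DDB2 (-0.81, SE 0.25, adjusted p = 0.0286), both p53 targets, fell.

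With B. subtilis alone, the calls without a block among these 4 lists were 3 higher and 1 lower of the 25 arrest genes, beside 4.44% of all genes. PLK2 (2.50, SE 0.52, adjusted p = 0.0143), PLK3 (2.14, SE 0.50, adjusted p = 0.0247), both stress-responsive polo-like kinases, and the death receptor FAS (1.47, SE 0.23, adjusted p = 0.0023) rose, and PHLDA3 fell (-2.16, SE 0.39, adjusted p = 0.00624). With the set block 8 arrest genes were higher and 3 lower, as were 3 and 7 of the other replication genes, 1 and 5 of the other mitosis genes and 1 and 2 of the E2F list, beside 18.4% of all genes. The difference between the lists was not tested. With B. subtilis plus poly I:C the arrest list gave 9 higher and 5 lower of 25, and the other replication list 9 higher and 4 lower of 49, with FEN1, the flap endonuclease of lagging-strand synthesis, at 1.41 (SE 0.18, adjusted p = 4.3e-05), beside 19% of all genes higher and 16.6% lower. With E. faecium plus poly I:C these lists gave 9 and 2, and 5 and 2, beside 13.3% and 9.9% of all genes. With E. faecium alone edgeR called none in any of the 4 lists.

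Markers of lymphocytes, which can divide in such cultures, were present at low levels. The 17 markers of T, NK and B cells summed to 72.2 to 95.5 CPM in control, 94.7 to 128 CPM with poly I:C, 65.9 to 109 CPM with B. subtilis, 74.9 to 91.7 CPM with E. faecium, 92.3 to 148 CPM with B. subtilis plus poly I:C and 78.0 to 110 CPM with E. faecium plus poly I:C. CD3E, a T cell receptor complex subunit, was at 4.12 to 10.4 CPM, and the T and NK cell genes CD2, NCR1 and GZMB at 5.42 to 38.5, 14.4 to 33.8 and 0.154 to 16.6 CPM. Of the B cell genes, CD79A was at 6.64 to 18.3 CPM and MS4A1 at 0 to 0.874 CPM. The 11 epithelial markers summed to 29.1 to 154 CPM in control, 39.6 to 235 CPM with poly I:C, 133 to 391 CPM with B. subtilis, 37.5 to 125 CPM with E. faecium and 66.3 to 346 and 42.2 to 233 CPM with the combined treatments, with EPCAM alone at 27.5 to 389 CPM. The monocyte and dendritic cell markers summed to 1760 to 4240 CPM with poly I:C alone and 1840 to 3860 CPM with E. faecium plus poly I:C. Endothelial and fibroblast markers summed to 1.91 to 9.42 CPM with CDH5 at 0. The part of these cells in the levels of the cell cycle genes was not tested.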

How the data were processed

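Per the labels, RNA of alveolar macrophages under 6 treatments, 3 libraries each, was read on an Illumina sequencer. The authors deposited raw counts per gene and library, keyed by NCBI gene ID, and the column numbers were taken as the pig numbers of the sample titles. The submitters' processing notes name Sscrofa11.1 and DESeq2, while the aligner, the counter and any use of strand are not stated there. By gene start and end, 12 members overlap another gene (MCM4, MCM7, CDK1, CCNA2, AURKA, AURKB, PLK1, CENPF, CCND2, CCND3, CCNE2 and E2F2). Whether exons are shared was not examined, and how reads in an overlap were assigned is therefore not known. For MCM5, which is not placed on a chromosome, overlap was not assessed. All 38 members matched RefSeq by gene ID, and 351 of 30686 rows did not match and stayed in the totals. There were 0 columns of other series.

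Counts were tested with edgeR 4.0.16 (R 4.3.3, limma 3.58.1): TMM factors of 0.664 to 1.38, filterByExpr with a minimum count of 10 (13592 genes kept), 1 model with a mean per treatment over all 18 libraries, the quasi-likelihood F test, two-sided, and Benjamini-Hochberg adjustment over all genes tested. A gene was called at an adjusted p of 0.05. SE and 95% intervals come from the F value. The test was checked on simulated counts. Sums of squares are of log2 CPM with a prior count of 2. Nothing but the titles says that libraries are separate animals, and the sets described in the report cross the numbers, so p-values measure the spread between these libraries.

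Same-numbered libraries of different treatments correlated in their deviations at -0.528 to 0.741, with 17 of 45 pairs over 0.1, so the number was not used as a pairing. Alternatives were a replicate block by pig number, a library set block, RLE factors, total counts, no filter, only the groups compared, DESeq2 1.42.0 and leaving out each library. Total counts and the averaged contrast were added after the data had been seen. The members, gene lists and tests were chosen with earlier results of these data known. Values are given in every library for members called in a test and for TOP2A, MKI67, PCNA and CDKN1A; of other lists, up to 3 genes with the largest called changes in each direction are named.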

Additional observations from a re-analysis of the deposited data

Results flagged for a closer look

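With all libraries, E2F1 passed a test of the interaction of B. subtilis and poly I:C and one of the difference between the bacteria alone, in both cases with the block for the library set and not without it. The interaction of B. subtilis and poly I:C was 1.78 on the log2 scale with that block (adjusted p = 0.00323) and 1.72 without it (adjusted p = 0.409). The level was 4.69, 10.6 and 4.80 CPM with B. subtilis and 6.08, 4.48 and 8.91 CPM with both agents, and it was 4.70, 4.54 and 9.06 CPM with poly I:C, so that these 3 groups overlapped.

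The difference of B. subtilis from E. faecium in E2F1 was -1.37 with the set block (adjusted p = 0.000665) and -1.28 without it (adjusted p = 0.273). The E. faecium libraries held 20.5, 15.5 and 13 CPM, and all 3 lay above the B. subtilis libraries. The sets were defined from these libraries, and which animal each library came from was not tested.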

How the results depend on the processing

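No called member reversed under any alternative. Of 36 member calls, 36 held with DESeq2, 36 with the library set block, 35 with RLE factors and 32 with the replicate block by pig number. With no filter 28 held, with total counts 27, with only the groups compared 17 of 30, and without single libraries 227 of 288.

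The replicate block by pig number left 1 member called with B. subtilis against control and moved no other count by more than 1.5 times. The library set block gave 5 there, 11 with E. faecium plus poly I:C, 5 for each combined treatment against its bacterium, 1 between the bacteria, 1 in the B. subtilis interaction, 11 in the averaged contrast and 12 over all treatments.

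No filter on low counts gave 4 calls with poly I:C and 6 with B. subtilis plus poly I:C. Fitting only the groups compared gave 1 with B. subtilis, 3 with B. subtilis plus poly I:C and 0 for B. subtilis plus poly I:C against B. subtilis. The share of all genes called under these settings is not given here, so the counts show only how the member calls moved. DESeq2 gave 1 with E. faecium, where it gave no other tested member an adjusted p. Total counts gave 20 with B. subtilis plus poly I:C, 10 with E. faecium plus poly I:C, 18 in the averaged contrast and 13 over all treatments. All genes called higher and lower were 957 and 6151, 988 and 4069, and 1406 and 6519 in the first 3 of these. For the test over all treatments the share of all genes on this scaling is not given. The replication median was then -1.19 with poly I:C, -0.80 with B. subtilis, -1.46 and -0.99 with the combined treatments and -0.88 averaged. The mitosis median was -0.71, -1.40, -0.85 and -0.67 with poly I:C, the combined treatments and averaged. The cause of these shifts was not tested.

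Leaving out 1 library gave 4 to 6 calls with poly I:C, 1 to 2 with B. subtilis, 0 to 1 with E. faecium, 6 to 14 with B. subtilis plus poly I:C and 4 to 6 with E. faecium plus poly I:C. Against poly I:C the range was 0 to 3 for B. subtilis and 0 to 0 for E. faecium added. Against the bacterium it was 0 to 6 for B. subtilis and 1 to 4 for E. faecium, between the combined treatments 0 to 4, and between the bacteria and in both interactions 0 to 0. It was 6 to 9 in the averaged contrast and 5 to 9 over all treatments. The share of all genes called without each library is not given here, so these ranges show only how the member calls moved. Replication medians ran from -0.84 to -0.41 with poly I:C, -0.52 to -0.39 with B. subtilis, -0.33 to -0.01 with E. faecium, -0.82 to -0.33 and -0.60 to -0.35 with the combined treatments and -0.52 to -0.23 averaged. Mitosis medians ran from -0.49 to -0.04, -0.71 to -0.42, -0.33 to 0.09, -0.85 to -0.45, -0.58 to -0.04 and -0.42 to -0.12 in the same order. The 6 to 14 range with B. subtilis plus poly I:C had its ends without control 1 and without B. subtilis plus poly I:C 2. The mitosis genes had a median of 24 counts in a library, and how far depth limits their calls was not tested.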
